A study of Mus musculus with 6 samples.

Results

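Expression of the T cell receptor and of the proteins that first relay its signal was followed through 37 genes in naive CD8 T cells. The genes were chosen by name, as the chains, coreceptors, kinases, adaptors and early effectors of the receptor, and all 37 had a row among the 14515 gene rows of the read count table. Cells came from the spleens of 3 LAIR-1-deficient mice (Lair1-/-) and 3 wild type mice (Lair1+/+). From each mouse, 100000 cells were sorted by surface CD45, CD3, CD8 and absence of CD44, among other markers, and 1 library per mouse was sequenced from total RNA. LAIR-1 is a collagen-binding inhibitory receptor found on many leukocytes. The mice received no treatment that the labels name, and the sources used here do not give their strain, their age or the removed part of Lair1. Because the gate selected cells by the proteins that several of these genes encode, the presence of those genes in every library follows in part from the sort.

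The receptor for peptide and MHC has no enzyme of its own. Its antigen-binding chains are held in the membrane by the CD3 gamma, delta and epsilon chains and the zeta chain, which carry tyrosine motifs in their tails. The kinase LCK, brought in by CD8, phosphorylates these motifs, and ZAP70 then docks on them and phosphorylates the adaptors LAT and SLP-76. The adaptors gather phospholipase C gamma, exchange factors and actin regulators, from which the Ras and MAP kinase, NF-kappaB and calcium pathways start.

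Counts assigned to genes summed to between 5519748 and 7296424 in the LAIR-1-deficient libraries and to between 7974206 and 9187017 in the wild type libraries. Lair1 had 2, 1 and 1 counts in the LAIR-1-deficient libraries, against 58, 32 and 43 in the wild type libraries. Among markers of other cell types, Ncr1 (NK cells), Lyz2 (macrophages) and Cd40lg (CD4 T cells) had between 0 and 1 counts in every library. Other markers of these lists had more. Cd4 had 0 to 18 counts and Foxp3 1 to 21 (CD4 T cells), Cd68 22 to 30 and Csf1r 3 to 26 (macrophages), and Tyrobp 4 to 18 (NK cells). The B cell markers summed to 27.2 to 33.7 CPM in LAIR-1-deficient libraries and to 30.1 to 33.5 CPM in wild type libraries. CD8 T cell markers (Cd8a, Cd8b1 and Runx3) summed to 2413 to 2520 CPM in LAIR-1-deficient libraries and to 2386 to 2623 CPM in wild type libraries. The summed markers of NK cells were 41.1 to 59.4 CPM in LAIR-1-deficient and 39.0 to 55.0 CPM in wild type libraries, nearly all of it Eomes, and those of CD4 T cells, macrophages, dendritic cells, neutrophils, platelets, erythroid and gamma delta T cells were at most 7.25 CPM per list in any library. No marker on these lists that was tested passed the test of genotype. None of the dendritic cell, erythroid, gamma delta T cell, neutrophil or platelet markers was tested. Tested were 3 B cell markers, and 2 each for NK cells, macrophages and CD4 T cells. Platelet markers summed to 1.07 to 2.60 CPM in LAIR-1-deficient and 2.92 to 5.80 CPM in wild type libraries, a difference that was not tested. CPM here are counts relative to library size, adjusted between libraries by TMM factors. In bulk RNA, fewer cells of a type and less RNA per cell cannot be told apart.

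The genes of the CD3 chains were the first set of interest. Cd3g, Cd3d and Cd3e lie side by side on chromosome 9, and Cd3d was at a lower level than the other two. In GRCm38, Cd3g (44969572 to 44980431, minus strand) and Cd3d (44981786 to 44987339, plus strand) are transcribed away from each other, with 1355 bases between their start sites. Cd3e (44998740 to 45009627, minus strand) begins 27841 bases from the start of Cd3d. Cd247, which encodes the zeta chain, lies apart from these genes, on chromosome 1 (165788681 to 165877277, plus strand). Their RefSeq promoter windows in GRCm38.p6, from 250 bases before to 50 bases after the start site, are given on the strand of the gene, because these are the 4 chains of the signalling core and share a short motif. Capitals mark the E-box letters CAGGTG, or CACCTG where the match is on the other strand, which transcription factors of the E protein family can bind.
Cd3g, chr9:44980382-44980681, minus strand: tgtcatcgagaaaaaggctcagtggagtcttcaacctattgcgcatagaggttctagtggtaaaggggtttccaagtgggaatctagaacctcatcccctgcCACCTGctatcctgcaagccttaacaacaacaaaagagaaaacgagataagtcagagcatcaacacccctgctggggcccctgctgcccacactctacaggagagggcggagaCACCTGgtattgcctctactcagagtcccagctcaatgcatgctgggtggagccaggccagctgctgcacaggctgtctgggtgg
Cd3d, chr9:44981536-44981835, plus strand: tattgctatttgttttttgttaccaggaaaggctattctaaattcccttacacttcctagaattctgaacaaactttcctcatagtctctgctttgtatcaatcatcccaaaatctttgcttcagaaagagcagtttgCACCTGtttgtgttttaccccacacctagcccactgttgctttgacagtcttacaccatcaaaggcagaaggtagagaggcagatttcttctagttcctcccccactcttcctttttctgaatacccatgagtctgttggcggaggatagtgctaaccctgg
Cd3e, chr9:45009562-45009861, minus strand: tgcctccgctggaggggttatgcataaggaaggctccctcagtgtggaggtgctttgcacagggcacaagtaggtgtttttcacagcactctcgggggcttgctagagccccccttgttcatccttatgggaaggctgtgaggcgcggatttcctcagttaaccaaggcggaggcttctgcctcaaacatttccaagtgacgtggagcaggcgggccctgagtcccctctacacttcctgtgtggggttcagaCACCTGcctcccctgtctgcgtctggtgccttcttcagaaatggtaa
Cd247, chr1:165788431-165788730, plus strand: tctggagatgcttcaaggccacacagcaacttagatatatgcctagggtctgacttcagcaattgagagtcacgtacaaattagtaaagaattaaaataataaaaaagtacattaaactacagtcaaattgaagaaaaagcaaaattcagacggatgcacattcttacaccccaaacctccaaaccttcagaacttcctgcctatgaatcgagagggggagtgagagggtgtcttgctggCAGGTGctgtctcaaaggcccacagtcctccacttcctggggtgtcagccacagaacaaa

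All 4 windows held the E-box letters, Cd3g at 148 and 35 bases before its start site, Cd3d at 112 and Cd247 at 10 bases before it, and Cd3e 3 bases after it. Of the 37 genes, 30 had a promoter window in the RefSeq table, in 39 windows. The letters stood in 13 of these 39 windows (33.3%), the 4 shown included, against 6640 of the 32851 windows of all genes (20.2%). Some genes had several windows, and the difference in shares was not tested. Both strands were searched. The RUNX letters TGTGGT stood in 15.4% of the member windows and 16.8% of all windows. The ETS letters CCGGAA stood in 12.8% of the member windows and 14.9% of all windows, and the TATA letters TATAAA in 5.13% of the member windows and 13.6% of all windows. None of these last 3 was found in the 4 windows shown. A match describes letters in a window and is not a binding site.

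The mean levels per kilobase of the members differed by up to 7474-fold, or 1139-fold without the lowest gene, and Cd8b1, Ptprcap and Lck ranked highest on that scale. Levels of different genes were compared as CPM per kilobase of annotated exon. With no division by length the range was narrower, from 1497 CPM (Cd8b1) to 1.06 CPM (Plcg1), with Nck2 next lowest at 5.30 CPM. By CPM the highest were Cd8b1, Cd3e and Cd3g. Over tested genes with an annotated length, CPM did not grow with exon length, so the per-kilobase order places short genes higher. Cd8b1, the beta chain of the CD8 coreceptor, ranked first, at 997 ± 19.5 CPM per kilobase in LAIR-1-deficient cells and 1022 ± 37.6 in wild type cells (SD, n = 3 each). Ptprcap, which encodes a small protein bound to CD45, followed at 562 ± 17.2 in LAIR-1-deficient and 544 ± 26.2 CPM per kilobase in wild type cells. Most of its exonic bases overlap exons of Rps6kb2 or Coro1b, so its level may hold reads of these genes. Lck averaged 404 CPM per kilobase over the 6 libraries, Cd3g 372, Cd3e 336, Lat 265, Cd8a 256 and Cd3d 209. Per kilobase of exon, a gap then separated these 8 genes from Fyn, the other Src family kinase of T cells, at 51.2 CPM per kilobase. On this scale 9 members reached 50 CPM per kilobase. The gap depended on the length used, as given below. The middle of the order, from Lcp2 (SLP-76) at 48.2 to Mapk3 (the MAP kinase ERK1) at 13.6 CPM per kilobase, held adaptors, exchange factors and kinases, among them Zap70 at 29.1. A further gap per kilobase lay below Mapk3, and 10 members were under 5 CPM per kilobase.

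The members low per kilobase included both Ras exchange factors of the Sos family, Sos1 at 2.01 and Sos2 at 0.886 CPM per kilobase, and both Nck adaptors, Nck1 at 3.42 and Nck2 at 1.19. Also there were Pag1, a membrane anchor for the LCK inhibitor CSK, at 3.37, Themis, a regulator of receptor signal strength, at 2.55, the SLP-76 partner Grap2 at 2.51, the kinase Tec at 1.51 and the paracaspase Malt1 at 0.904. Malt1 (18.0 kilobases of exon), Themis (11.7) and Pag1 (9.58) are long genes. By CPM, Pag1 ranked 27, Themis 29 and Malt1 32 of the 37. Plcg1, which encodes the phospholipase C gamma that LAT recruits in T cells, was last at 0.135 CPM per kilobase. It had 9, 5 and 9 counts in the LAIR-1-deficient libraries, against 5, 13 and 8 in the wild type libraries, was under the count filter and was not tested. Exons of Plcg1 share 379 bases with Zhx3 and 248 bases with Gm27206, both on the opposite strand. How reads there were assigned is not given in the sources used here. Plcg2, the form better known from B cells, stood at 0.675 CPM per kilobase. Among the 9004 tested genes with an annotated length, the median was 4.30 CPM per kilobase, and 27 of the 37 members lay above it. By level per kilobase of exon, Cd8b1 was at percentile 99.2, Lck at 98.7, Zap70 at 87.5, Tec at 23.9 and Sos2 at 13.9 of these genes.

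**Figure D1:**
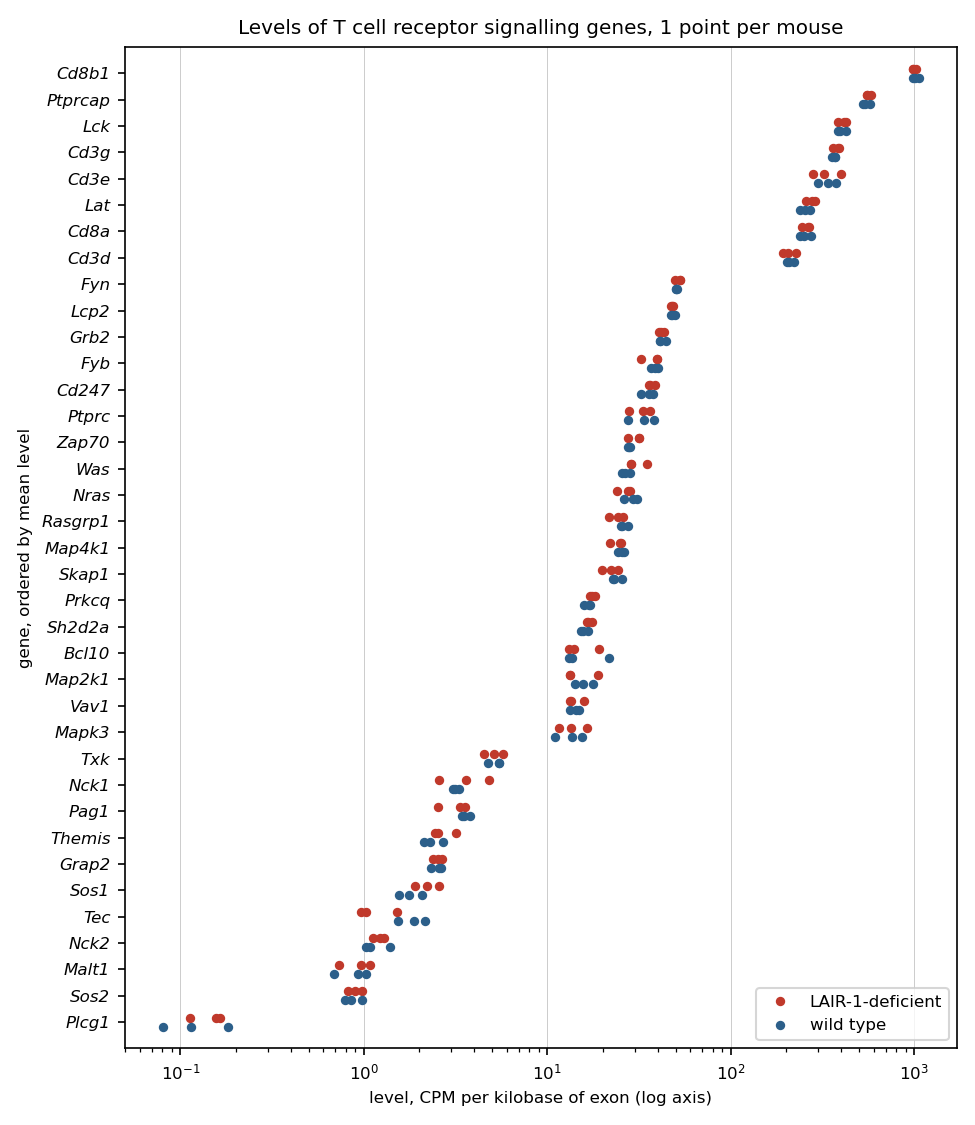
Level of each of the 37 genes in CPM per kilobase of exon on a log axis, ordered by the mean over 6 libraries, with 1 point per mouse (LAIR-1-deficient above wild type in each row). The points of both genotypes lie together in nearly every row, with Cd8b1 at the top, gaps on this per-kilobase scale below Cd3d and below Mapk3, and Plcg1 at the bottom.

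Neighbours in this order were mostly within each other's range. Of the 36 neighbouring pairs, 9 were separated, meaning that the lowest library of the upper gene exceeded the highest library of the lower gene. The separated steps lay between Cd8b1 and Ptprcap, Ptprcap and Lck, Cd8a and Cd3d, Cd3d and Fyn, Lcp2 and Grb2, Grb2 and Fyb, Skap1 and Prkcq, Mapk3 and Txk, and Sos2 and Plcg1. Lck, Cd3g, Cd3e, Lat and Cd8a could each not be separated from the next gene by their ranges, except that Cd8a stood above Cd3d. The order was close in both genotypes. The largest shift in rank was 2 places, and 24 of the 37 members held the same rank in LAIR-1-deficient and wild type cells. The order depends on the length used. With the longest transcript of each gene in place of all its exons, ranks moved by up to 10 places (Skap1, rank 20 to rank 10), while Cd8b1, Ptprcap and Lck stayed at ranks 1 to 3. The sources used here do not say where along a transcript the reads fall, and over the 9004 genes CPM and exon length had a Spearman rho of 0.00316, so counts did not grow with length. Among the 37 members that rho was -0.44, so that dividing by length placed short genes higher. By CPM with no division by length, an order added after the values were seen, ranks moved by up to 7 places. Cd8b1 stayed first by CPM, at 1497, with Cd3e at rank 2, Cd3g at 3 and Lck at 4. Ptprcap was at rank 6 with 890 CPM, and Ptprc, at 600 CPM, passed Cd3d, at 380. The step below Mapk3 was not present by CPM, since Txk (56.7 CPM) and Pag1 (32.3 CPM) exceeded Mapk3 (30.7 CPM). The gap below Cd3d was filled when the longest transcript was the length. Per kilobase of that transcript, Ptprc (104), Skap1 (81.8), Fyb (76.4) and Cd247 (65.1) lay between Cd3d (235) and Fyn (62.8). By CPM, Fyn (224) came next after Cd3d (380).

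Between genotypes, no member of the pathway was called different. Of 37 members, 36 passed the count filter, and edgeR's quasi-likelihood test called 0 of them at an adjusted p under 0.05, against 1 of 9565 genes tested (0.0105%), which was Lair1. DESeq2 and limma-voom called 0 members too. An unadjusted p under 0.05 was reached by 1 of 36 members, Tec, against 3.25% of all genes. Libraries of the 2 genotypes did not overlap for 3 of 36 members (Prkcq, Was and Tec), or 8.33%, where the share over all tested genes was 8.38%. Prkcq and Was lay higher in every LAIR-1-deficient library (5.56% of members, against 4.30% of all genes) and Tec lower (2.78%, against 4.09%). Fold changes, given as log2 of LAIR-1-deficient over wild type, were positive for 19 members (52.8%, against 50.2% of all tested genes) and negative for 17, with a median of 0.02 beside 0.00 over all genes. The 95% interval lay within 1.5-fold either way for 32 of 36 members (88.9%), against 63.2% of all tested genes and 86.9% of the 6620 genes at 10 CPM or more, to which 33 of the 36 members belong. The exceptions were Sos1, Nck1, Nck2 and Tec. It lay within 2-fold for all members but Tec, 35 of 36 (97.2%), against 85.9% of all tested genes and 98.7% of those at 10 CPM or more. All 37 genes together took 1.12%, 1.10% and 1.12% of counts in LAIR-1-deficient mice 1 to 3, against 1.08%, 1.13% and 1.08% in wild type mice 1 to 3 (exact permutation test, two-sided, p = 0.4; the smallest that 3 against 3 allows is 0.1).

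**Figure D2:**
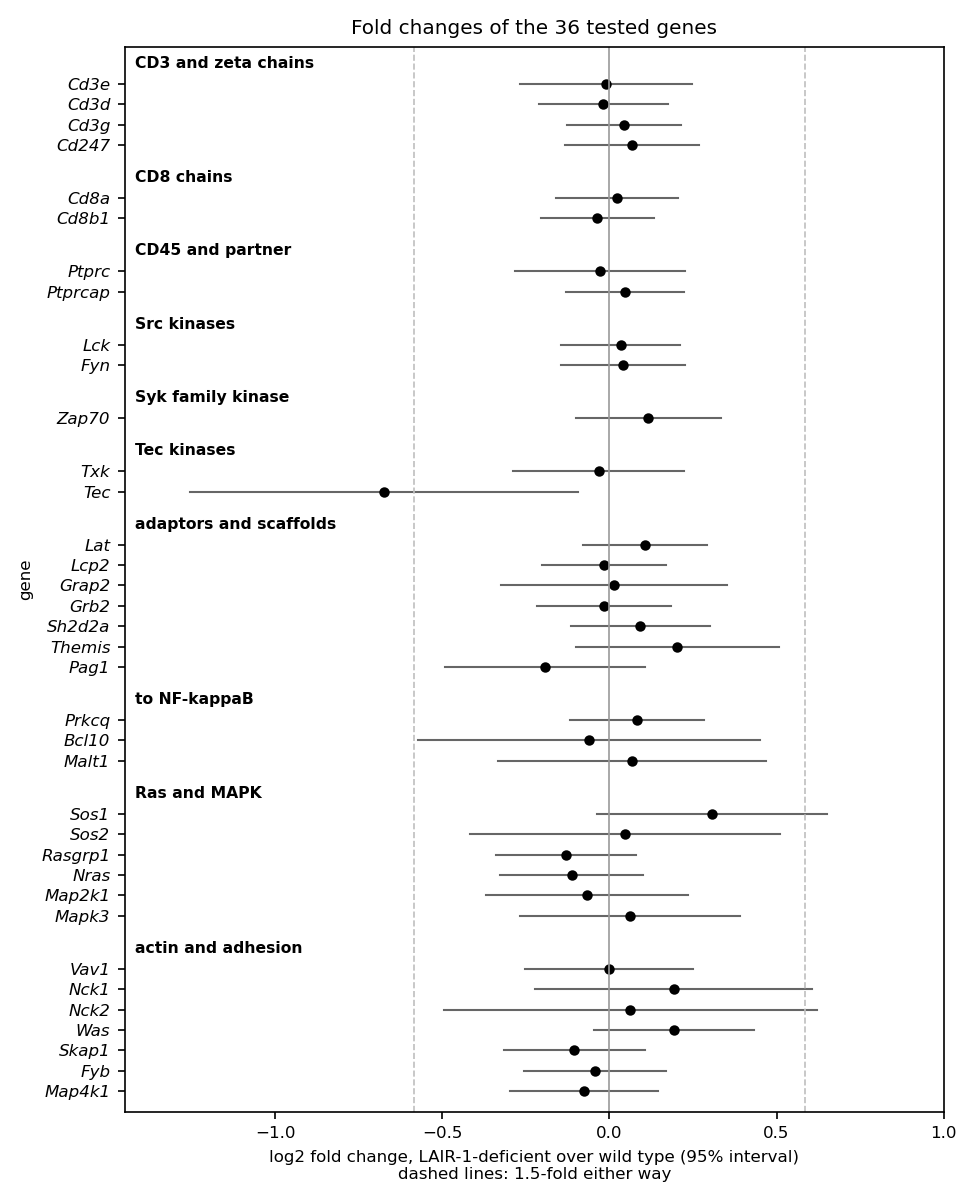
Log2 fold change (LAIR-1-deficient over wild type) of the 36 tested genes by role, with 95% intervals from edgeR and dashed lines at 1.5-fold. All intervals but that of Tec (-1.26 to -0.09) cross 0, and those of Sos1, Nck1, Nck2 and Tec reach past a dashed line.

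The CD3 chains were nearly level between genotypes but varied between mice. Cd3e, the epsilon chain shared by both CD3 dimers, had 1634, 1147 and 1316 CPM in LAIR-1-deficient mice 1 to 3, against 1523, 1382 and 1221 CPM in wild type mice 1 to 3. Mouse 1 was the highest library in both groups, and the groups overlapped, with a log2 fold change of -0.01 (95% interval -0.27 to 0.25). Its sign changed when single libraries were left out, between -0.16 and 0.10. Cd3g, the gamma chain, was steadier, at 1250, 1184 and 1265 CPM in LAIR-1-deficient mice, against 1171, 1217 and 1203 CPM in wild type mice (log2 fold change 0.04, -0.13 to 0.21). The log2 fold change was -0.02 (-0.21 to 0.18) for Cd3d, the delta chain, and 0.07 (-0.13 to 0.27) for Cd247. Within a library, Cd247 per kilobase was far below Cd3e, whose level was 9.24 times as high on average, and Cd3e was above Cd3d in 6 of 6 libraries, at 1.59 times. With no division by length, Cd3e was at 7.08 times Cd247 and 3.58 times Cd3d. Exons of Cd247 overlap those of Pou2f1 on the opposite strand over 3007 bases, and without a stated strand setting the reads of the 2 genes cannot be told apart. The receptor's alpha and beta chain genes Trac, Trbc1 and Trbc2 had no row under these symbols in the read counts, and reads of alpha and beta chain genes were not analysed here.

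The coreceptor and CD45 genes were also nearly level between genotypes. Cells of both genotypes were sorted by surface CD45, CD3 and CD8, and the part of this gate in the closeness of their genes was not tested. Cd8a had 891, 972 and 954 CPM in LAIR-1-deficient mice, against 870, 989 and 916 CPM in wild type mice, and the log2 fold change of Cd8b1 was -0.04 (95% interval -0.21 to 0.13). The level of Cd8a per kilobase was 0.254 of that of Cd8b1, and the ratio lay between 0.249 and 0.270 in LAIR-1-deficient libraries and between 0.242 and 0.256 in wild type libraries. With no division by length, Cd8a was at 0.622 of Cd8b1 on average. Ptprc encodes CD45, the phosphatase that keeps LCK active, and had 511, 608 and 662 CPM in LAIR-1-deficient mice, against 506, 616 and 695 CPM in wild type mice. Mouse 1 was the lowest library in both groups. Ptprcap had a log2 fold change of 0.05 (-0.13 to 0.22). Of its 1611 exonic bases, it shares 1224 with Rps6kb2 on the opposite strand and 432 with Coro1b on the same strand, so its count may hold reads of these genes.

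Among the kinases, Lck exceeded Fyn in every library. Lck had 1250, 1128 and 1214 CPM in LAIR-1-deficient mice, against 1156, 1238 and 1118 CPM in wild type mice, and Fyn had 217, 231 and 232 CPM in LAIR-1-deficient mice, against 219, 221 and 221 CPM in wild type mice. Per kilobase Lck was 7.88 times Fyn on average, with ratios of 7.27 to 8.57 in LAIR-1-deficient and 7.52 to 8.35 in wild type libraries. With no division by length, Lck was 5.29 times Fyn on average. Zap70 had 94.7, 94.3 and 82.6 CPM in LAIR-1-deficient mice, against 84.9, 83.3 and 82.2 CPM in wild type mice, with a log2 fold change of 0.12 (95% interval -0.10 to 0.33). Its level per kilobase was 0.0719 of that of Lck.

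Tec was the member with the smallest p. It encodes the founding kinase of the Tec family, which acts on phospholipase C gamma, and it had 25, 32 and 28 counts in the LAIR-1-deficient libraries, against 64, 64 and 51 in the wild type libraries. These made 3.60, 5.69 and 3.83 CPM in LAIR-1-deficient mice, against 8.07, 7.00 and 5.72 CPM in wild type mice. The groups did not overlap, but the highest LAIR-1-deficient and the lowest wild type library differed by little. The log2 fold change was -0.68 (SE 0.28, 95% interval -1.26 to -0.09), with an unadjusted p of 0.0251 and an adjusted p of 0.9999 over all genes (edgeR). With single libraries left out, the log2 fold change of Tec was -0.56 without LAIR-1-deficient mouse 1 (unadjusted p = 0.0762), -0.89 without LAIR-1-deficient mouse 2 (0.00942) and -0.59 without LAIR-1-deficient mouse 3 (0.0748). It was -0.55 without wild type mouse 1 (0.0974), -0.67 without wild type mouse 2 (0.0570) and -0.80 without wild type mouse 3 (0.0185). Without mouse 1 of both groups it was -0.44, with an unadjusted p of 0.199 (edgeR). Its neighbour Txk, a Tec family kinase of resting T cells whose gene lies 2938 bases from that of Tec on chromosome 5, was at 49.6, 62.8 and 55.9 CPM in LAIR-1-deficient mice and at 52.3, 59.9 and 59.6 CPM in wild type mice.

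Among the adaptors and scaffolds, Lcp2 was the steadiest of the 37 genes across libraries. Lat, the membrane adaptor on which the signalling complex is built, had 799, 765 and 714 CPM in LAIR-1-deficient mice, against 661, 706 and 748 CPM in wild type mice (log2 fold change 0.11, 95% interval -0.08 to 0.29). Lcp2 varied by 1.05-fold between the highest and the lowest of the 6 libraries, at 211 to 215 CPM in LAIR-1-deficient and 212 to 222 CPM in wild type cells. Grb2, the adaptor that carries SOS, had a log2 fold change of -0.02 (-0.22 to 0.18), and its relative Grap2, which links LAT to SLP-76, of 0.01 (-0.33 to 0.35). Grap2 was at 0.0599 of Grb2 per kilobase and at 0.128 with no division by length. Themis was at 31.8 ± 4.61 CPM in LAIR-1-deficient and 27.7 ± 3.35 CPM in wild type cells (SD, n = 3 each), and Pag1 at 30.2 ± 5.10 CPM in LAIR-1-deficient and 34.4 ± 1.99 CPM in wild type cells. Sh2d2a, a T cell adaptor that binds LCK, was at 101 ± 3.60 CPM in LAIR-1-deficient and 94.3 ± 3.78 CPM in wild type cells. The groups overlapped for each of these adaptors. Nck2 and Grb2 have near-identical stretches of at least 500 bases at 95% identity or more in annotated pseudogenes (Gm6226 and Gm12791), which are not rows of the table, so their counts may hold reads of these copies.

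In the branch to Ras and the MAP kinases, Sos1 had the widest positive difference. It was at 20.0, 23.3 and 27.3 CPM in LAIR-1-deficient mice, against 16.4, 18.7 and 22.0 CPM in wild type mice. The groups overlapped, and the log2 fold change of 0.31 (95% interval -0.04 to 0.65) had an unadjusted p of 0.0764 and an adjusted p of 0.9999 (edgeR). Rasgrp1, the exchange factor activated by diacylglycerol, stood far above the Sos genes per kilobase, at 25.0, and had 121, 144 and 136 CPM in LAIR-1-deficient mice, against 142, 144 and 153 CPM in wild type mice. Nras, a Ras GTPase, had a log2 fold change of -0.11 (-0.33 to 0.10). Map2k1, the kinase MEK1, was at 51.3 ± 10.8 CPM in LAIR-1-deficient and 53.8 ± 5.97 CPM in wild type cells (SD, n = 3 each), and Mapk3 at 31.3 ± 5.56 CPM in LAIR-1-deficient and 30.0 ± 4.98 CPM in wild type cells. Sos2 was at 7.66 ± 0.69 CPM in LAIR-1-deficient and 7.43 ± 0.82 CPM in wild type cells.

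In the branch to NF-kappaB, Bcl10 differed more between mice than between genotypes. Bcl10, an adaptor that works with MALT1, was at 87.4, 59.8 and 64.1 CPM in LAIR-1-deficient mice, against 98.9, 59.7 and 62.5 CPM in wild type mice. Mouse 1 was the highest library of both groups, and the other 4 libraries lay between 59.7 and 64.1 CPM. Its log2 fold change was -0.06 (95% interval -0.57 to 0.45) and was 0.02 without mouse 1 of both groups. Prkcq, the protein kinase C theta that starts this branch, had 122, 123 and 130 CPM in LAIR-1-deficient mice, against 121, 113 and 120 CPM in wild type mice. All of its LAIR-1-deficient libraries were above all wild type libraries by a small margin, and its log2 fold change was 0.08 (-0.12 to 0.28, adjusted p = 0.9999, edgeR). Malt1 was at 16.7 ± 3.20 CPM in LAIR-1-deficient and 15.9 ± 3.17 CPM in wild type cells (SD, n = 3 each).

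Genes of actin and adhesion completed the pathway. Was, which encodes the actin nucleation factor WASP, had 82.9, 68.1 and 68.4 CPM in LAIR-1-deficient mice, against 61.2, 63.5 and 67.3 CPM in wild type mice. The groups did not overlap, LAIR-1-deficient mouse 1 was the highest library, and the log2 fold change of 0.19 (95% interval -0.05 to 0.43, adjusted p = 0.9999, edgeR) was 0.09 without that mouse. Vav1, the exchange factor for Rac, was nearly equal on average, at 52.3 ± 5.31 CPM in LAIR-1-deficient and 52.4 ± 2.96 CPM in wild type cells (SD, n = 3 each). Nck1 had 12.3, 22.9 and 17.4 CPM in LAIR-1-deficient mice, against 14.8, 15.9 and 15.0 CPM in wild type mice. The spread lay in the LAIR-1-deficient group, whose mouse 2 was the highest and mouse 1 the lowest of the 6 libraries. Nck2 was at 5.40 ± 0.40 CPM in LAIR-1-deficient and 5.19 ± 0.86 CPM in wild type cells. The adhesion adaptors Skap1 and Fyb (ADAP), which act together on integrins, had log2 fold changes of -0.11 (-0.32 to 0.11) and -0.04 (-0.26 to 0.17), and Map4k1 (HPK1), a kinase that dampens the SLP-76 complex, of -0.08 (-0.30 to 0.15).

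Ratios within a library were compared for 14 pairs of partner genes, since they do not depend on scaling between libraries. Of these pairs, 0 passed an exact permutation test adjusted over the 14 (smallest adjusted p 0.933), a test that cannot go below an unadjusted p of 0.1 with 3 against 3. Only for Txk over Tec did the groups not overlap, with per-kilobase ratios of 4.70, 3.77 and 4.99 in LAIR-1-deficient mice, against 2.22, 2.92 and 3.56 in wild type mice (two-sided exact permutation p = 0.1). Sos1 exceeded Sos2 in 6 of 6 libraries, by 2.25 times on average, and Nck1 exceeded Nck2 in 6 of 6, by 2.84 times. Bcl10 over Malt1 was 26.0 and 31.6 in mouse 1 of the LAIR-1-deficient and the wild type group, and between 12.1 and 14.6 in the other 4 libraries. The order of 2 pairs turned with the length used. Skap1 was at 0.606 of Fyb per kilobase of exon and at 1.07 per kilobase of the longest transcript, and Cd3e at 0.897 and 1.12 of Cd3g. Ptprc was at 0.0589 of Ptprcap per kilobase of exon, 0.126 with the longest transcript and 0.669 with no division by length.

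**Figure D3:**
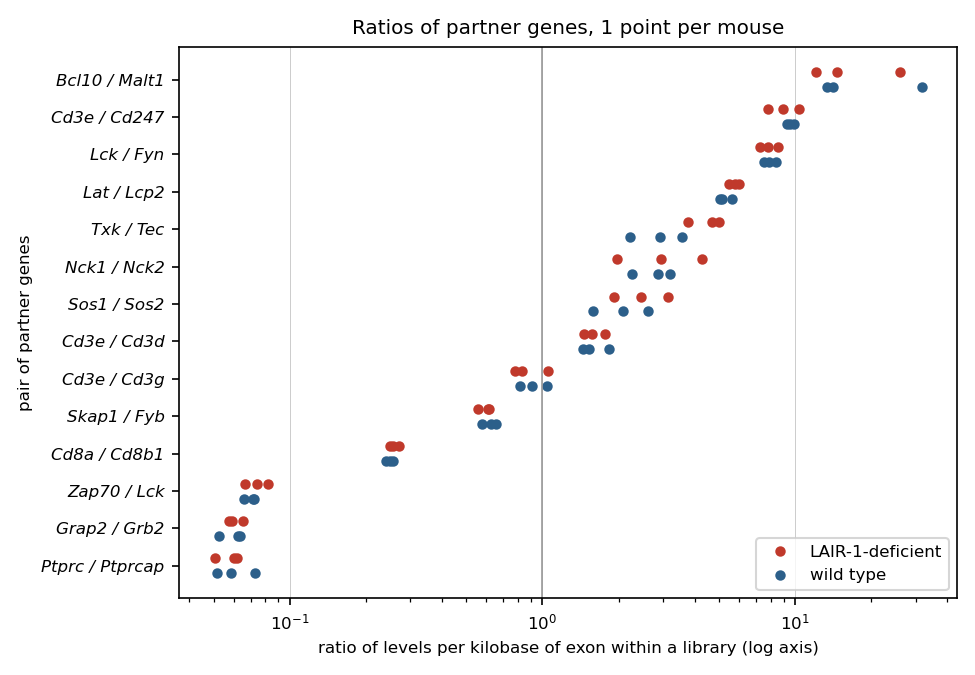
Ratio of the per-kilobase levels of 14 pairs of partner genes within each library on a log axis, with 1 point per mouse (LAIR-1-deficient above wild type in each row). The groups overlap in each row but Txk over Tec, and the 2 points to the right for Bcl10 over Malt1 are mouse 1 of each group.

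Across libraries, the members varied little within a group. The median SD of log2 CPM within a group was 0.12 over the 36 tested members, against 0.20 over all tested genes and 0.16 over those at 10 CPM or more. These sets were not matched for level. The median level was 24.7 CPM per kilobase over members and 4.30 over tested genes with an annotated length. Mouse 1 of both genotypes stood apart by its immediate early genes, and the cause was not tested. Nr4a1 was at 588 CPM in LAIR-1-deficient mouse 1 and 473 CPM in wild type mouse 1, and between 56.7 and 113 CPM in the other 4 libraries, and for 13 of 14 tested immediate early genes both mouse 1 libraries exceeded the 4 others. For the receptor pathway, 7 of 36 members (Cd3e, Cd247, Vav1, Grap2, Sos2, Bcl10 and Skap1) had both mouse 1 libraries above the 4 others, or 19.4% against 11.9% of all tested genes. Another 6 (Cd8a, Fyn, Malt1, Nck1, Txk and Ptprc) were lower in both, or 16.7% against 12.1%. The part of the immediate early state in these members' levels was not tested. Without mouse 1 of both groups, 0 members were called, and the median log2 fold change over 37 tested members was -0.01.

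**Figure D4:**
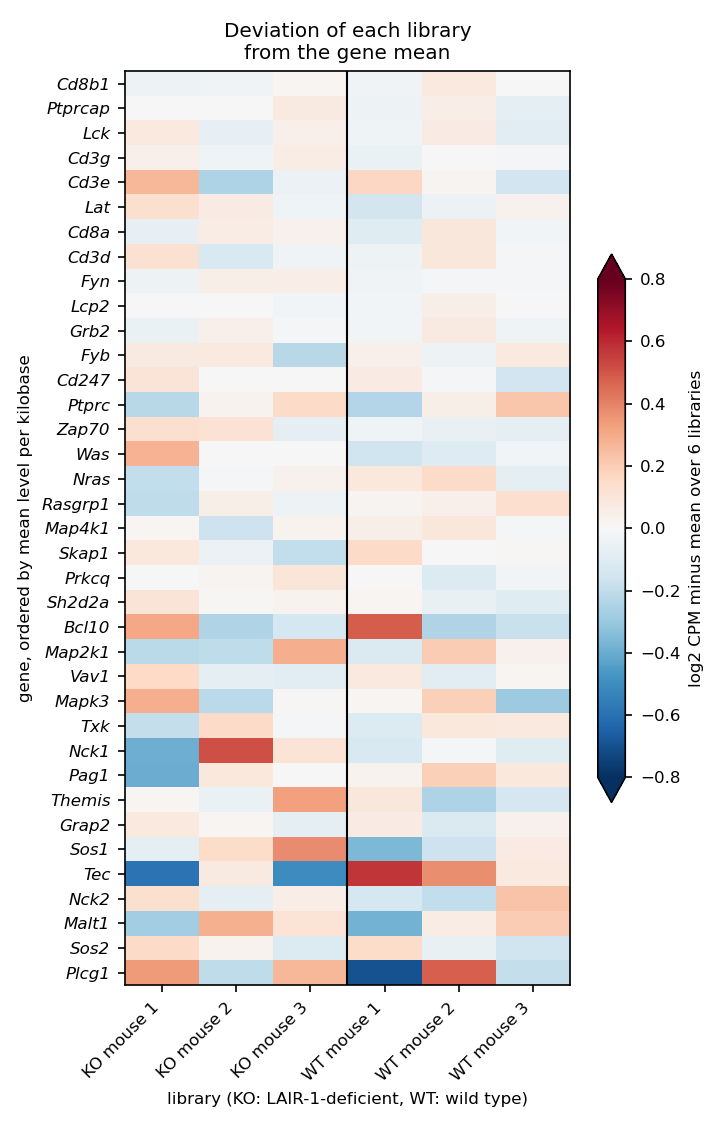
Log2 CPM of each gene in each library minus its mean over the 6 libraries, with LAIR-1-deficient (KO) libraries left and wild type (WT) libraries right of the line. Most cells are pale, Tec is red in wild type mice 1 and 2 and blue in LAIR-1-deficient mice 1 and 3, and Bcl10 is red in mouse 1 of both groups. Other rows with low counts also stand out. Plcg1 is blue in wild type mouse 1 and red in wild type mouse 2, and Nck1 is blue in LAIR-1-deficient mouse 1 and red in LAIR-1-deficient mouse 2.

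The rest of the pathway gave no call either. Of 78 further genes of receptor signalling listed by role, 71 were rows of the table and 67 were tested. Of these, 0 passed the test over all genes, 2 had an unadjusted p under 0.05 (2.99%, against 3.25% of all tested genes, edgeR), 35 fold changes were positive and 32 negative, and the median was 0.00. Libraries did not overlap for 6 of the 67 (8.96%, against 8.38% of all tested genes). In the negative direction, the members with the smallest p were Wasf2 (WAVE2, an actin regulator), at 7.26 ± 0.43 CPM in LAIR-1-deficient and 11.4 ± 2.38 CPM in wild type cells, Plcg2, at 2.07 ± 0.74 CPM in LAIR-1-deficient and 3.73 ± 0.79 CPM in wild type cells, Cd5, an inhibitory coreceptor, and Traf6, a ubiquitin ligase on the way to NF-kappaB. Their log2 fold changes were -0.65, -0.83, -0.19 and -0.25. In the positive direction they included the costimulatory receptor Cd28, Csk (the kinase that restrains LCK) and Map3k7 (TAK1), with log2 fold changes of 0.31, 0.13 and 0.17. Csk was at 319, 311 and 321 CPM in LAIR-1-deficient mice, against 301, 282 and 287 CPM in wild type mice. Its groups did not overlap, but its 95% interval ran from -0.05 to 0.31 and it did not pass.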

How the data were processed

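The authors deposited raw read counts per gene, as whole numbers with a column for each library, per the file headers. BWA and the build mm10 are named in the submitters' processing notes; which annotation and counting tool were used, with which strand setting, and whether molecular identifiers were counted is not given in the sources used here. Per the labels' protocols, libraries were made from total RNA with small RNA primers. Columns were matched to mice by sample descriptions and titles, and 4 spike-in rows (0 to 4 counts per library) were left out. Library totals were 5519748 to 9187017. A chi-square of 5.39 to 26.1 per gene between libraries, where sampling noise gives about 1, left all 6 as separate samples.

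Genes were tested with edgeR 4.0.16 (filterByExpr with a smallest count of 10, TMM, robust quasi-likelihood F test, two-sided, no covariate), with Benjamini-Hochberg adjustment over the 9565 genes tested and a threshold of 0.05. Intervals and SEs were derived from the fold change and F statistic. DESeq2 1.42.0, limma 3.58.1 (voom), other scalings, filters, a mouse-number block and leaving out each library were alternatives. Exon lengths and coordinates are from GENCODE vM21 (GRCm38), where 13564 of 14515 rows, all 37 members included, matched by symbol and chromosome. Ratios and shares were compared by exact permutation tests. Scripts were tested on simulated counts. All members present in the table are named; of further pathway genes, those with the 4 smallest p per direction and family partners of members are named, except some that are not reported here. Members and lists were chosen with earlier results of these data known.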

Additional observations from a re-analysis of the deposited data

How the results depend on the processing

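No member was called under any of the alternatives run. The count of genes called was 1, and was 3 without a count filter, 0 with a smallest count of 30, 0 with limma-voom, 0 without mouse 1 of both groups (added after seeing the data) and 0 to 2 with single libraries left out (0 without wild type mouse 1, 2 without LAIR-1-deficient mouse 2 or 3). The cause was not tested. The median log2 fold change of members was 0.0175, 0.000664 to 0.0345 with single libraries left out (lowest when wild type mouse 3, highest when LAIR-1-deficient mouse 2 was omitted), and -0.0129 without mouse 1 of both groups. The cause was not tested. The number of separated neighbours in the level order was 9, and lay between 9 and 13 under every alternative run (13 with the longest transcript as length). With mouse number as a block, 0 members and 1 gene were called and 0 pair ratios passed, in an exact sign-flip test over 3 pairs that cannot go below p = 0.25. Deviations of same-numbered mice correlated at 0.290, 0.009 and 0.065, so the numbers were not taken as pairs.

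Of 36 members, 18 kept the sign of their fold change under every alternative, Tec, Sos1, Was and Prkcq among them, and 18 did not, all with a log2 fold change under 0.20 in size. With library totals as scaling Vav1 was at 0.00555. Without mouse 1 of both groups Lck was at -0.0120, Bcl10 at 0.0171, Mapk3 at -0.0703 and Nck2 at -0.0414. With single libraries left out, the ranges were Cd8a -0.0211 to 0.0724, Lck -0.00315 to 0.0749, Cd3e -0.164 to 0.101, Ptprc -0.143 to 0.0798, Fyb -0.0979 to 0.0483, Lcp2 -0.0322 to 0.00332, Grb2 -0.0391 to 0.0181, Malt1 -0.0809 to 0.205, Cd3d -0.0908 to 0.0366, Txk -0.119 to 0.0446, Sos2 -0.0280 to 0.133, Bcl10 -0.251 to 0.206, Map2k1 -0.258 to 0.0217, Vav1 -0.0948 to 0.0431, Mapk3 -0.0851 to 0.179, Grap2 -0.0410 to 0.0535, Nck1 -0.0381 to 0.391 and Nck2 -0.0206 to 0.205. Depth limits the low members, Plcg1, Tec, Sos2 and Nck2, which had 5 to 66 counts per library; intervals cover the spread between mice, and the placement of reads along transcripts is unknown.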
